A study of Mus musculus with 20 samples.

Results

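Krt8, Krt18, Krt19, Cd24a, Cdh2 and Basp1 are known markers of the nucleus pulposus (NP), the soft centre of each disc of the spine. They were followed here in NP and in the annulus fibrosus (AF), the layered fibrous tissue that encloses that centre. They were picked by name as known markers, with earlier results of these data in view, and each of the 6 symbols occurs once among the 51789 genes of the table, and all 6 passed the filter on low values that kept 16383 genes for testing. The libraries came from 24-month-old BL6 mice dosed by weekly intraperitoneal injection for 6 months from 18 months of age. NP vehicle and AF vehicle libraries came from mice that received DMSO. NP MDL-800 and AF MDL-800 libraries came from mice that received MDL-800 in the same amount of DMSO. Whether NP and AF libraries of a treatment came from the same mice is not given by the labels. MDL-800 is a small-molecule activator of the deacylase SIRT6. Each of the 4 groups has 5 libraries, and no group is free of DMSO or of injections. A library is named by its group and the number in its sample title.

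NP cells descend from the notochord, the embryonic rod along which the spine forms, and unlike most connective tissue cells they carry an epithelial type of cytoskeleton. Keratin filaments are obligate heteropolymers of a type II keratin, here keratin 8, with a type I keratin, here keratin 18 or keratin 19. CD24 is a small, heavily glycosylated surface protein, N-cadherin (Cdh2) is a calcium-dependent adhesion protein that holds NP cells in clusters, and BASP1 is a myristoylated protein of the inner face of the plasma membrane. In mature discs AF cells are fibroblast-like and are classically described as poor in simple keratins.

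Libraries are bulk tissue, so fewer cells of a type and less RNA per cell cannot be told apart. The labels do not say whether the replicates of a group are separate animals, so p-values measure the spread between these samples. The protocol describes tissue dissected under a microscope, whereas a label calls the material primary cells. Depth, estimated from the steps of the low values, lay between about 12400000 and 22000000 fragments per library. In both treatments all 8 neutrophil markers, all 7 red blood cell markers, all 8 bone markers and all 8 skeletal muscle markers tested were lower in NP by limma. Their summed levels were still not 0 in NP, with skeletal muscle markers between 12.3 and 1417 scaled FPKM and neutrophil markers between 202 and 3199 (FPKM, fragments per kilobase of transcript, relative to library depth, after division by a factor per library). Most markers of surface epithelium, another source of simple keratins, were at or near 0 in NP vehicle libraries: Esrp1 was listed at 0 in all 5, Grhl2 averaged 0.00797 ± 0.0129 and Epcam 0.0804 ± 0.0511 scaled FPKM (SD, n = 5). Of 9 such genes 7 averaged under 1 scaled FPKM there, and the others were Krtdap, at 26.1 ± 14.4, and Sfn, at 3.52 ± 1.96 (SD, n = 5).

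In vehicle-treated mice 5 of the 6 genes were higher in NP than in AF, and Basp1 did not pass the test. By limma 21.8% of all genes tested were higher in NP, 33.9% were lower and 55.7% differed in either direction, so a call alone is common here. The size is less so: the median difference of the 6 genes was 2.24 on the log2(scaled FPKM + 1) scale, against -0.08 over all genes tested. Krt8, Krt18 and Krt19 ranked 38, 39 and 64 among the 16383 genes by this difference, Cdh2 ranked 96, Cd24a 321 and Basp1 3840. NP and AF libraries did not overlap for 4 genes, Krt8, Krt18, Cd24a and Cdh2, where 15.1% of all genes were higher with no overlap.

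**Figure D1:**
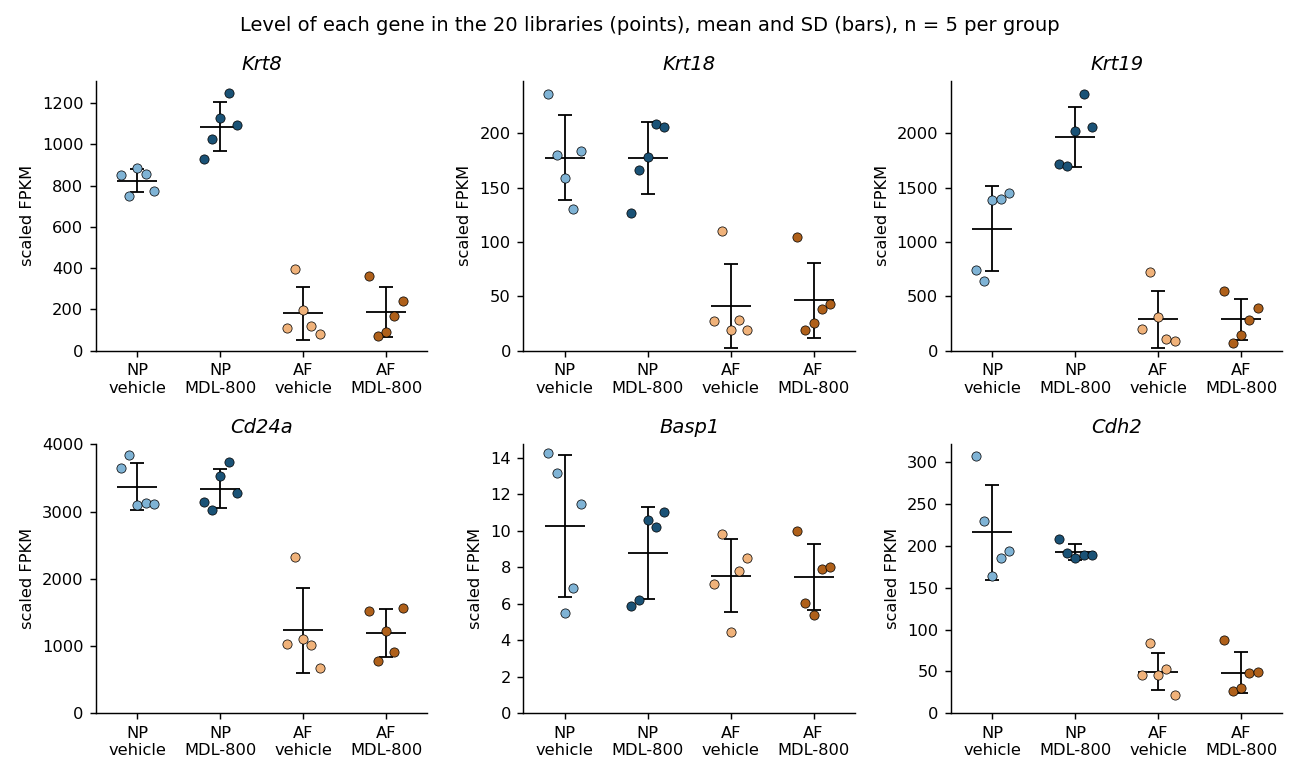
Level of each gene in scaled FPKM (vertical axis, starting at 0) in the 20 libraries, by group; points are libraries, in the order of their numbers from left to right, the long bar is the mean and the whiskers are 1 SD. For Krt8, Krt18, Cd24a and Cdh2 every NP library lies above every AF library, and Basp1 stays between 4.45 and 14.3 in all of them.

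Krt8 (ENSMUSG00000049382) and Krt18 (ENSMUSG00000023043), the classical partners of the simple keratin filament, are neighbours on chromosome 15 of GRCm38. Krt8 lies at chr15:101996698-102004482 on the minus strand and Krt18 at chr15:102028180-102032027 on the plus strand, 23.7 kb apart and transcribed away from each other. Krt19 (ENSMUSG00000020911) is elsewhere, at chr11:100140810-100148665 on the minus strand. RefSeq start regions were matched for 3 of the 6 genes, Krt8, Krt18 and Basp1. They are shown to set the neighbours Krt8 and Krt18, which were both higher in NP, beside Basp1, which was not called, each from 250 bases before to 10 bases after the start given by RefSeq (GRCm38.p6), 5′ to 3′ on the gene's own strand. Capitals mark matches, on either strand, of 5 short motifs that were searched: the TATA box (TATAAA), the GC box (GGGCGG), the AP-1 site (TGANTCA), the hypoxia response core (ACGTG) and a T-box half-site (AGGTGTGA).
Krt8, chr15:102004333-102004592, minus strand: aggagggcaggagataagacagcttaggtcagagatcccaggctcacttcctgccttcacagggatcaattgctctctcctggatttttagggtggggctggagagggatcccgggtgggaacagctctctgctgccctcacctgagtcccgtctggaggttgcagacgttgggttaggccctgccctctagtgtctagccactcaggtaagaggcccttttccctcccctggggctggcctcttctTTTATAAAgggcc
Krt18, chr15:102027966-102028225, plus strand: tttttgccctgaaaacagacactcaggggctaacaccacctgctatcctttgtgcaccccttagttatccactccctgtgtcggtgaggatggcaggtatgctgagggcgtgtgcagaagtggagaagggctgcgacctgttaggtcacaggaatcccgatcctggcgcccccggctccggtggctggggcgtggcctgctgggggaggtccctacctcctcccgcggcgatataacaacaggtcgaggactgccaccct
Basp1, chr15:25413755-25414014, minus strand: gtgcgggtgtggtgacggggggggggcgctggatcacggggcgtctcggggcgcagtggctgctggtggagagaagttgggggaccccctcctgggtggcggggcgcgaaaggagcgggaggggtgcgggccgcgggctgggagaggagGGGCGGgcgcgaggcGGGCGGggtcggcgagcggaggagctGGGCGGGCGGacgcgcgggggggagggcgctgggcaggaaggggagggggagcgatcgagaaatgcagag

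The RefSeq starts of Krt8 and Krt18 lie inside the gene spans given above. Positions count from these RefSeq starts and not from the outer ends of the spans. The start region of Krt8 holds TATAAA at positions -1 to 5 from the start, and an overlapping match on the other strand at -3 to 3. TATAAA occurs in 12.7% of the 32851 RefSeq start regions of the same length. The window of Krt18 has none of the 5 motifs, which says only that these letters are not in it. Basp1 has 4 matches of GGGCGG, the last 2 of them overlapping, in a window of 77.3% GC, against 57.7% for Krt8, 60.8% for Krt18 and a median of 52.3% over all windows. GGGCGG occurs in 33.4% of all windows, TGANTCA in 7.03%, ACGTG in 17.3% and AGGTGTGA in 1.18%. A match is a description of the sequence only, and nothing measured here bears on binding to it.

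Krt8, the only type II keratin among the 6 genes, stood at 853, 752, 886, 859 and 776 scaled FPKM in libraries 1, 2, 3, 5 and 6 of NP vehicle. The values of AF vehicle, for libraries 8, 9, 10, 12 and 13, were 112, 395, 199, 119 and 79.9. The lowest NP library was above the highest AF library, which was library 9. The group means were 825 ± 57.7 and 181 ± 127 (SD, n = 5), and limma gave a difference of 2.42 (SE 0.36, adjusted p = 0.000217), a 5.35-fold higher level with a 95% confidence interval from 3.10 to 9.22. NP libraries were alike, with a coefficient of variation of 7.00%, whereas AF libraries varied by 70.4%.

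Krt18, the type I partner of Krt8, was present at a lower level per length. It read 236, 179.6, 159, 129.8 and 183 scaled FPKM in the NP libraries of the same order. AF libraries read 27.5, 109.9, 19.0, 28.7 and 19.4. Library 9 again stood far above the other AF libraries and just below the lowest NP library. The means were 178 ± 39.0 and 40.9 ± 38.9 (SD, n = 5), and limma gave a difference of 2.42 (SE 0.42, adjusted p = 0.000582).

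Krt19, the smallest type I keratin and the more abundant one here, was the only keratin of the 3 whose tissues overlapped. Vehicle NP libraries 1 and 2 read 745 and 643 scaled FPKM, and libraries 3, 5 and 6 read 1384, 1394 and 1448. The AF values were 198, 728, 309.6, 109 and 92.4 in the order used above. NP library 2 was thus below AF library 9, and 4 of 5 NP libraries were above all AF libraries. Means of 1123 ± 394 and 287 ± 261 (SD, n = 5) gave a limma difference of 2.30 (SE 0.52, adjusted p = 0.00321), and an exact two-sided permutation test gave p = 0.0159, where the smallest possible value is 0.0079.

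Cd24a (ENSMUSG00000047139, chr10:43578284-43584265, plus strand), which encodes the CD24 glycoprotein, had the highest FPKM of the 6 genes and ranked 9 among all genes tested in NP. Vehicle NP libraries read 3651, 3846, 3102, 3134 and 3116 scaled FPKM. Vehicle AF libraries read 1034, 2328, 1113, 1014 and 677, with library 9 highest again and below every NP library. The difference was 1.57 (SE 0.29, limma adjusted p = 0.001), a 2.97-fold higher level. In AF libraries Cd24a was itself an abundant transcript, at rank 36, so its contrast between the tissues is that of a high level against a higher one. AF vehicle libraries also held neutrophil markers at a summed 7594 to 19679 scaled FPKM and B and plasma cell markers at 359 to 925. The part of such cells in the AF level of Cd24a was not tested. The 4 known ligands of CD24 on the list, Hmgb1, Selp, Siglecg and L1cam, were all lower in NP by limma: Hmgb1, a nuclear protein that acts as a danger signal outside the cell, by a difference of -1.03 (adjusted p = 1.15e-05), and Selp, the platelet and endothelial selectin, by -2.08 (adjusted p = 4.67e-05).

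Cdh2 (ENSMUSG00000024304, chr18:16588877-16809246, minus strand), which encodes N-cadherin, read 307, 229.8, 164, 185 and 193 scaled FPKM in NP vehicle libraries. Vehicle AF libraries read 45.8, 83.4, 45.9, 52.7 and 21.8, all below the lowest NP library. Means of 216 ± 56.4 and 49.9 ± 22.1 (SD, n = 5) gave a limma difference of 2.17 (SE 0.30, adjusted p = 0.00015), or 4.51-fold. Among 16 other cadherins, catenins and junction partners tested, 8 were higher and 6 lower in NP (median difference 0.35). Cdh11, the cadherin of mesenchymal and bone cells, went the other way, from 25.3 ± 7.10 in AF to 0.900 ± 0.513 in NP (SD, n = 5; limma adjusted p = 3.99e-06). Cdh1, the E-cadherin of epithelia, was at 0.110 ± 0.103 scaled FPKM in NP (SD, n = 5) and also lower than in AF, by a limma difference of -1.39 (adjusted p = 0.000644), so NP libraries held simple keratins beside a very low level of Cdh1.

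Basp1 (ENSMUSG00000045763, chr15:25363277-25413764, minus strand) had the lowest level of the 6 genes and did not separate the tissues. Vehicle NP libraries gave 14.3, 13.2, 5.50, 6.87 and 11.5 scaled FPKM. Vehicle AF libraries gave 7.10, 9.83, 4.45, 7.80 and 8.51, which are all below the NP median of 11.5 but overlap the 2 lowest NP libraries. The limma difference was 0.36 with a 95% confidence interval from -0.23 to 0.95 (adjusted p = 0.279). Quantile normalization, which moves the median of all genes from -0.08 to 0.20, gives 0.71 (limma adjusted p = 0.0382), and 0.54 (limma adjusted p = 0.0436) in the MDL-800 libraries. Marcks, which encodes a related membrane-bound and myristoylated protein, was lower in NP, where it averaged 3.38 ± 1.29 against 41.9 ± 10.4 (SD, n = 5; limma adjusted p = 4.05e-06). Wt1, whose protein BASP1 is known to bind as a co-repressor, was higher in NP, where it averaged 3.71 ± 1.66 against 0.824 ± 1.06 (SD, n = 5; limma adjusted p = 0.00429).

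In MDL-800-treated mice 5 of the 6 genes, again all but Basp1, were called higher in NP by limma, where 25.6% of all genes tested were higher, 37.2% lower and 62.8% differed in either direction. All 5 were without overlap there, Krt19 included, where 18.5% of all genes were higher with no overlap and 49.1% were without overlap in either direction. Krt19 had the largest difference of the 6 genes, 3.10 (SE 0.48, adjusted p = 0.000227), and ranked 8 among the 16383 genes tested. Krt8 differed by 2.76 (SE 0.39, adjusted p = 0.000114) and Krt18 by 2.14 (SE 0.38, adjusted p = 0.00055). Cdh2 differed by 2.09 (adjusted p = 5.96e-05), Cd24a by 1.53 (adjusted p = 0.000111) and Basp1 by 0.19 (adjusted p = 0.445), all by limma. Both tissue comparisons use separate libraries in each treatment.

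**Figure D2:**
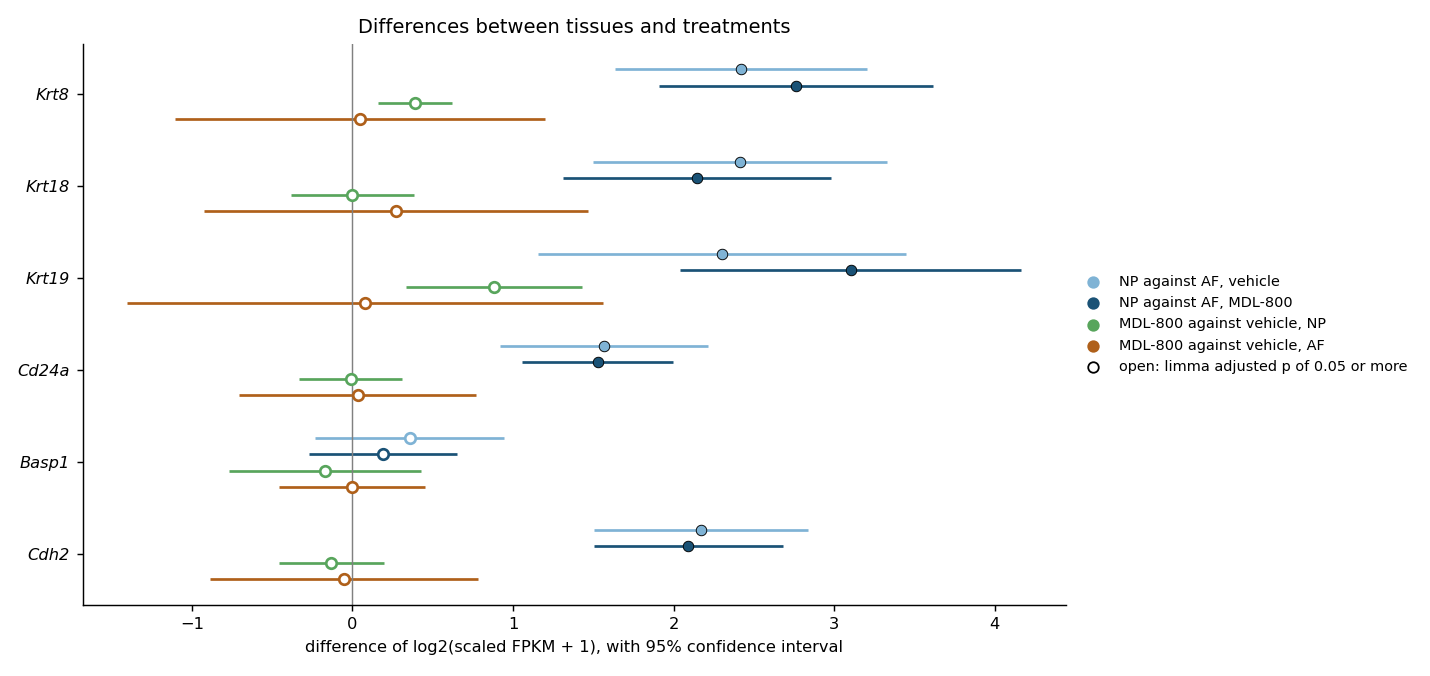
Difference of log2(scaled FPKM + 1) for each gene (horizontal axis) in 4 comparisons of 5 against 5 libraries, with limma's 95% confidence interval; filled points have a limma adjusted p under 0.05. The tissue differences of Krt8, Krt18, Krt19, Cd24a and Cdh2 are filled and lie between 1.53 and 3.10, and no treatment difference is filled.

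Other genes of the keratin system were read from lists. Of 51 other keratin genes in the table, 41 averaged under 0.1 scaled FPKM in NP vehicle libraries and 5 were tested. Krt80, Krt87, Krt7 and Krt20 were higher in NP by limma, and Krt10 was not called (adjusted p = 0.315). Krt7, the other type II keratin of simple epithelia, averaged 54.1 ± 7.68 in NP against 15.8 ± 15.2 for AF (SD, n = 5), which is a difference of 2.05 (limma adjusted p = 0.00163). Krt80, a type II keratin found near cell junctions, averaged 110.5 ± 20.2 in NP against 31.9 ± 26.2 for AF (SD, n = 5), which is a difference of 2.03 (limma adjusted p = 0.00131). Krt8 therefore exceeded both by far on the FPKM scale, which is per length.

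Among 15 tested genes of the desmosome and of keratin anchoring, 9 were higher and 4 lower in NP vehicle libraries, with a median difference of 0.48 against -0.08 over all genes. The desmosomal cadherins Dsg2 and Dsc2 were higher by 2.47 (SE 0.37, adjusted p = 0.000226) and 2.16 (SE 0.31, adjusted p = 0.000195) by limma, and Pkp2, the plakophilin that links them to the filament, by 2.30 (SE 0.27, adjusted p = 5.39e-05). These differences are close in size to those of Krt8 and Krt18. Dst, a spectraplakin that ties filaments to adhesion sites, was higher by 1.63 (SE 0.23, limma adjusted p = 0.000159). Of 9 tested filament genes that are not keratins, 7 were lower in NP and 1 was higher. The higher one was Vim, encoding vimentin of mesenchymal cells, at 5158 ± 496 against 1802 ± 653 (SD, n = 5; limma adjusted p = 0.00064), a level above that of each keratin gene in NP. Lmnb1, a nuclear lamin, was lower in NP by 2.41 on the log2 scale, from a limma difference of -2.41 (adjusted p = 4.26e-05).

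Other genes known from the notochord and NP did not all share the pattern: 10 of 15 tested were higher and 5 lower in NP vehicle libraries, by limma. Tbxt, the notochord transcription factor brachyury, averaged 1404 ± 252 in NP against 305.0 ± 201 for AF (SD, n = 5), which is a difference of 2.42 (SE 0.38, limma adjusted p = 0.000335), the same to 2 decimals as for Krt8. Pax1, a transcription factor of the sclerotome, was lower in NP, where it averaged 0.733 ± 0.851 against 29.6 ± 10.8 (SD, n = 5; limma adjusted p = 9.11e-06). Foxf1, Tek and B4galnt1, each described as an NP or NP progenitor marker in other settings, were also lower, by differences of -2.44, -2.22 and -3.12. The remaining lower gene was Car12, which averaged under 0.1 scaled FPKM in NP vehicle libraries. Noto averaged under 0.1 in all 4 groups and was not tested. All 8 endothelium markers tested were also lower in NP vehicle libraries by limma, with a median difference of -2.38. The part of endothelial cells in the lower level of Tek was not tested.

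AF libraries differed widely among themselves in the keratins. As a share of the NP vehicle mean, AF vehicle libraries ranged from 9.68% to 47.9% for Krt8, from 10.7% to 61.9% for Krt18 and from 8.23% to 64.8% for Krt19. AF MDL-800 libraries ranged from 6.54% to 33.6% of the NP MDL-800 mean for Krt8, from 10.5% to 59.3% for Krt18 and from 3.41% to 27.8% for Krt19. AF vehicle library 9 was the highest AF vehicle library for all 6 genes. AF MDL-800 library 25 was the highest of its group for 5 of the 6, all but Cd24a. The summed level of the 16 other notochord and NP genes moved with them: it was 14483 scaled FPKM in AF vehicle library 9, against 2750 to 7838 in the other 4, and 7815 in AF MDL-800 library 25, the highest of its group. AF vehicle library 9 was also the lowest AF library in summed AF and tendon-like markers, at 3021. The part of NP tissue in the AF levels was not tested.

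Within AF, 5 of the genes varied together between libraries. With the treatment means removed, Pearson's r over 10 AF libraries was positive for all 15 pairs. Krt8 with Krt19 gave r = 0.97 (exact permutation within treatment, adjusted p = 0.00417 over 30 pairs) and Spearman's rho = 0.96 (adjusted p = 0.00833, exact permutation). All 10 pairs without Basp1 had an exact permutation adjusted p of r under 0.05, the lowest r being 0.80 for Cd24a with Cdh2. By rho, 4 of these pairs passed, the lowest of the 10 being 0.68. Without the 2 libraries farthest from the median of the first gene, which were library 9 and 1 other in each of these pairs, r was still between 0.57 for Krt18 with Cd24a and 0.94 for Krt8 with Krt19.

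Within NP the same genes were not tied to each other in this way. Of 15 pairs over 10 NP libraries, 1 passed, Krt18 with Basp1, at r = 0.81 (exact permutation adjusted p = 0.0245) and rho = 0.81 (adjusted p = 0.0586, exact permutation). Without the 2 farthest libraries, NP vehicle 5 and NP MDL-800 15, r was 0.76. NP vehicle libraries 1 and 2, which have the highest Basp1, stayed in that check. The keratin partners Krt8 and Krt18 gave r = 0.41 (exact permutation adjusted p = 0.331), which fell to -0.12 without the 2 farthest libraries. Krt19 with Cdh2 was negative, at r = -0.78 (exact permutation adjusted p = 0.135) and rho = -0.89 (adjusted p = 0.0841, exact permutation), and at -0.76 without NP vehicle libraries 1 and 2. The difference in r between the tissues was not tested.

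**Figure D3:**
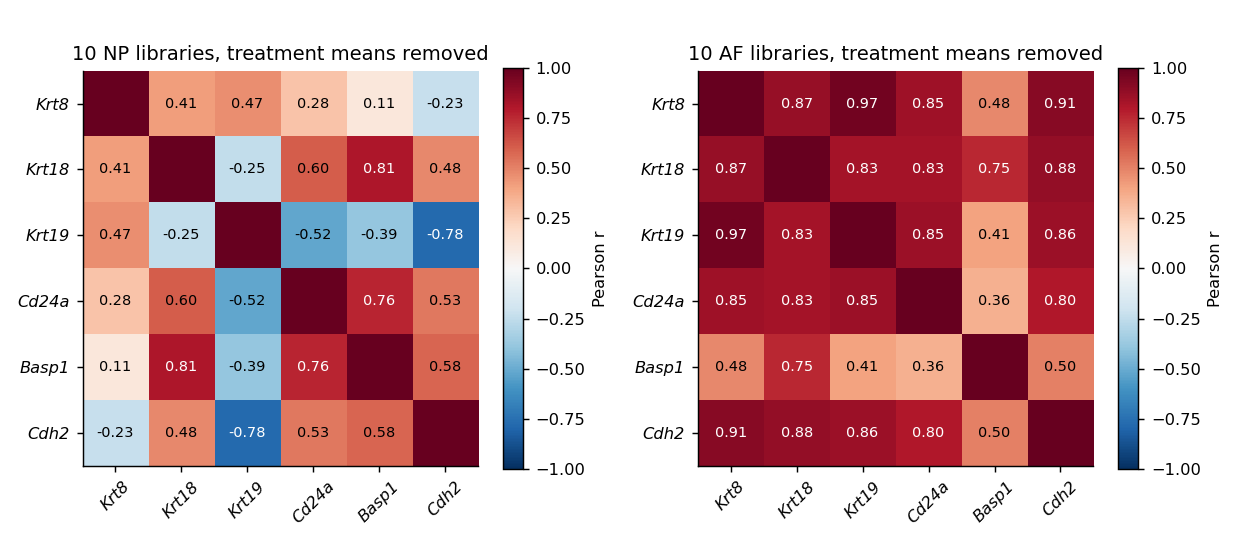
Pearson's r between the genes over 10 NP libraries (left) and 10 AF libraries (right), on log2(scaled FPKM + 1) with each treatment group's mean removed; red is positive and blue negative. All AF values are positive and those without Basp1 are 0.80 or more, while NP values run from -0.78 to 0.81.

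MDL-800 treatment moved none of the 6 genes past the threshold in either tissue. In NP limma called 0 of 6, and 41 of 16383 genes, or 0.25%, in all (0.232% higher and 0.0183% lower). At an unadjusted p under 0.05 there were 2 of the 6, Krt8 and Krt19, and 2311 genes in all. The same 2 genes were the ones whose treatment groups did not overlap, where 3.5% of all genes were higher with no overlap and 4.5% were without overlap in either direction.

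Krt8 read 929, 1025, 1129, 1248 and 1094 scaled FPKM in NP MDL-800 libraries 15, 18, 19, 20 and 22, each above the highest NP vehicle library at 886. The means were 1085 ± 119 and 825 ± 57.7 (SD, n = 5), and the difference was 0.39 with a 95% confidence interval from 0.16 to 0.62 (limma adjusted p = 0.12). The exact permutation p of 0.0079 is the smallest that 5 against 5 libraries can give. Krt19 read 1717, 1695, 2018, 2364 and 2054, again all above the highest vehicle library at 1448. Its means were 1969 ± 276 and 1123 ± 394 (SD, n = 5), and its difference was 0.88 with an interval from 0.33 to 1.43 (limma adjusted p = 0.141, exact permutation p = 0.0079). Neither passes the threshold over all genes.

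Base composition moved with these treatment groups. The GC slope of a library, the change of its log2 values per 10 percentage points of gene GC content relative to the mean of all libraries, was -0.29, -0.28, -0.03, -0.05 and -0.0067 in NP vehicle libraries 1, 2, 3, 5 and 6. It was between 0.02 and 0.09 in the 5 NP MDL-800 libraries, so the groups did not overlap in it. Krt8 and Krt19 transcripts have 57.1% and 57.6% GC, against a median of 49.3% over genes tested. Krt18 and Basp1, which have 56.4% each, had limma differences of 0.00 and -0.17 in NP, and neither was called. With each library's trend on GC removed, the difference of Krt8 was 0.24 (limma adjusted p = 0.401) and that of Krt19 0.72 (limma adjusted p = 0.188). Without NP vehicle libraries 1 and 2, whose slopes are below -0.2 and whose Krt19 is lowest, Krt19 differed by 0.47 (SE 0.14, limma adjusted p = 0.293) and Krt8 by 0.36 (SE 0.12, limma adjusted p = 0.321). That choice of libraries was made after seeing the data. Because the NP groups do not overlap in GC slope, its part in these differences cannot be told apart from that of treatment and was not tested.

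The summed level of the 9 surface epithelium markers was 7.11 to 45.6 scaled FPKM in vehicle and 41.0 to 84.7 in MDL-800 libraries of NP, so the groups overlapped, with 1 vehicle library above the 2 lowest MDL-800 libraries. In both groups Epcam, Cldn4, Cldn7, Esrp1, Grhl2 and Trp63 averaged under 0.1. Krtdap, which encodes a protein of differentiating keratinocytes, averaged 52.8 ± 17.2 under MDL-800 (SD, n = 5) against 26.1 in vehicle, a difference of 1.18 (SE 0.46, limma adjusted p = 0.272). Of the 2 tested genes, Krtdap and Sfn, neither was called for treatment and 1 had an unadjusted p under 0.05. Krtdap was called higher in NP than in AF under MDL-800, by 1.02 (SE 0.33, limma adjusted p = 0.0209). The part of such cells in the levels of Krt8 and Krt19 was not tested.

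**Figure D4:**
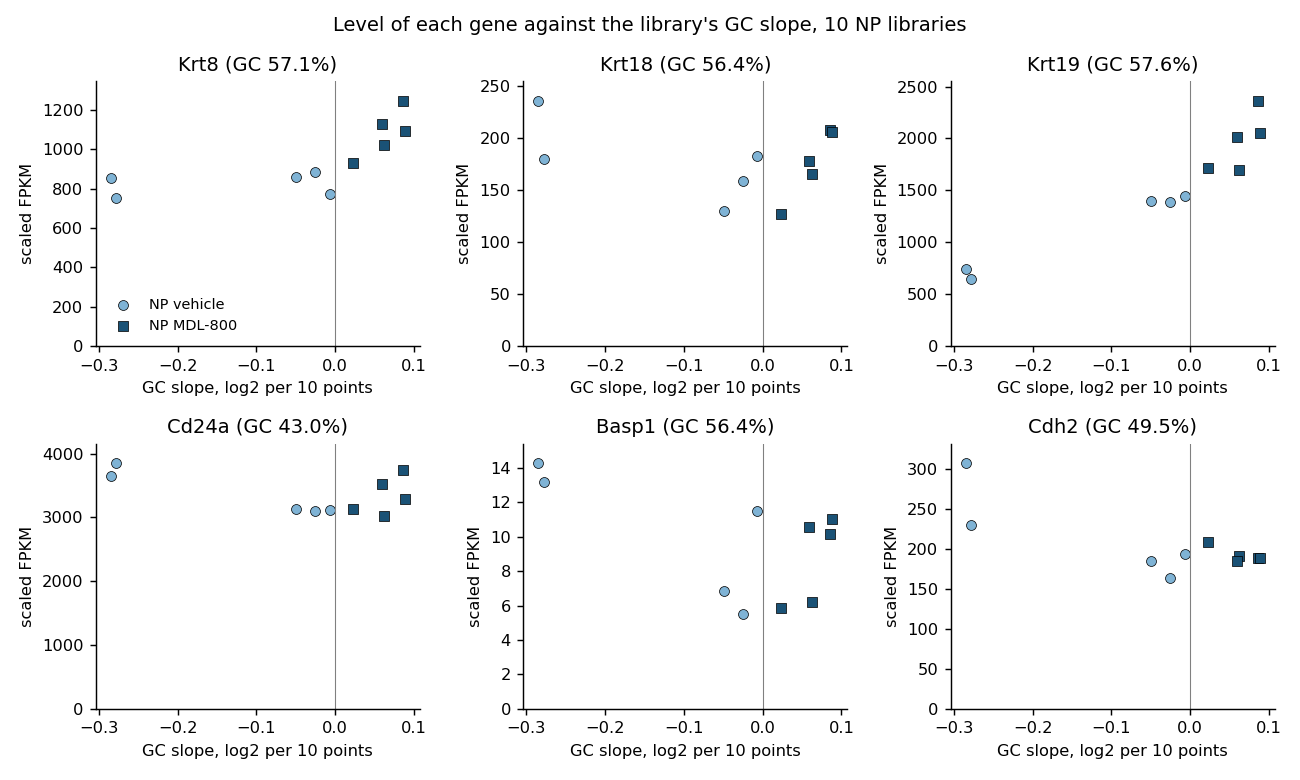
Level of each gene in scaled FPKM (vertical axis, starting at 0) against the GC slope of the library (horizontal axis, log2 per 10 points of GC content) in the 10 NP libraries; circles are vehicle and squares are MDL-800. NP vehicle libraries 1 and 2, at -0.29 and -0.28, have the lowest Krt19 and the highest Basp1, and the 5 squares lie to the right of all circles.

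The treatment groups of the other 4 genes overlapped in NP. Krt18 read 127, 166, 178, 208 and 206 scaled FPKM in NP MDL-800 libraries, a mean of 177 ± 33.2 (SD, n = 5) against 178 in vehicle, with a difference of 0.00 and a 95% interval from -0.38 to 0.38. Cd24a read 3137, 3022, 3525, 3743 and 3283, a difference of -0.01 with an interval from -0.33 to 0.31. The ratio of the treated to the vehicle mean was 0.996 for Krt18 and 0.992 for Cd24a, and the intervals allow changes of either sign. Cdh2 read 208.5, 191, 185, 188 and 189, a difference of -0.13 with an interval from -0.46 to 0.20. Its treated libraries were the most alike of any of the 6 genes in any group, with a coefficient of variation of 4.83% against 26.2% in NP vehicle. Basp1 read 5.87, 6.19, 10.6, 10.2 and 11.0, a difference of -0.17 with an interval from -0.77 to 0.43. Limma's adjusted p for these 4 genes lay between 0.753 and 1.

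The balance between the keratins shows the same libraries from another side, without any scaling between libraries. Krt19 over Krt18 was 3.16, 3.58, 8.70, 10.7 and 7.91 in libraries 1, 2, 3, 5 and 6 of NP vehicle. Under MDL-800 it was 13.5, 10.2, 11.4, 11.4 and 9.98 in NP. NP vehicle libraries 1 and 2 were thus far below the others, and library 5 was above 2 of the treated libraries. The group means were 6.82 ± 3.32 and 11.3 ± 1.40 (SD, n = 5), against 7.74 ± 4.99 in AF vehicle and 6.18 ± 2.13 in AF MDL-800. Krt8 over the sum of Krt18 and Krt19, type II against type I, averaged 0.679 ± 0.198 over NP vehicle libraries against 0.508 ± 0.0272 under MDL-800 (SD, n = 5). In AF it was 0.631 ± 0.164 in vehicle and 0.603 ± 0.126 in MDL-800 libraries (SD, n = 5). So in every group the FPKM of Krt18 and Krt19 together exceeded that of Krt8 on average, and Krt19 was the larger part of it. These ratios are given as a description, with no test.

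**Figure D5:**
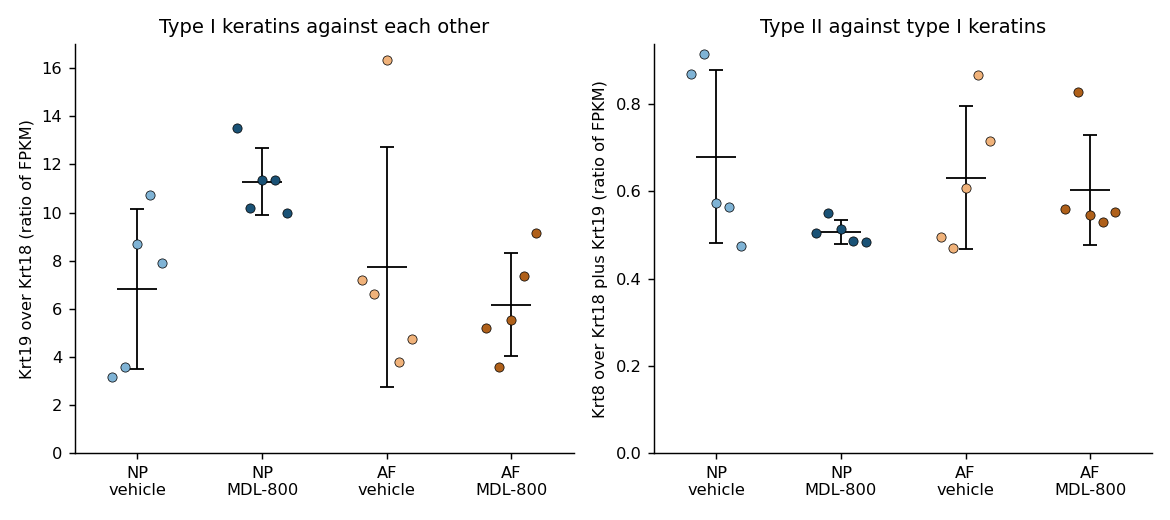
Ratio of Krt19 to Krt18 (left) and of Krt8 to the sum of Krt18 and Krt19 (right) in the 20 libraries by group; vertical axes are ratios of FPKM and start at 0, points are libraries, bars are the mean and 1 SD. NP MDL-800 libraries lie closest together in both ratios, and NP vehicle libraries 1 and 2 are the lowest 2 of all on the left, at 3.16 and 3.58.

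In AF limma called 0 of the 6 genes under MDL-800, and 0 of 16383 in all, or 0%, with none of the 6 and 270 genes at an unadjusted p under 0.05. Treatment groups overlapped for all 6, where 0.226% of all genes were without overlap (0.128% higher). AF MDL-800 libraries 25, 27, 28, 29 and 30 read 364, 71.0, 92.4, 171 and 242 scaled FPKM for Krt8, a mean of 188 ± 119 (SD, n = 5) against 181 in vehicle. Krt18 read 105, 18.6, 25.9, 38.5 and 43.3 there, and Krt19 read 547, 67.2, 144, 284 and 395. Library 25 was the highest and library 27 the lowest for each keratin, and treated and vehicle libraries overlapped throughout. Cd24a read 1523, 772, 1230.0, 912 and 1559.9 in the treated libraries, and Cdh2 read 87.7, 26.5, 30.5, 48.3 and 49.2. Basp1 read 9.99, 6.03, 5.40, 7.90 and 8.03. The differences lay between -0.05 for Cdh2 and 0.27 for Krt18. Their intervals are wide, from -1.40 to 1.56 for Krt19 and from -1.10 to 1.20 for Krt8, and hold the differences measured in NP.

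The treatment effect was not shown to differ between the tissues. In the fit of all 4 groups limma called 0 of the 6 genes and 0 of 16383, or 0%, for the difference of the effects, with 0 of the 6 and 610 genes at an unadjusted p under 0.05. For Krt19 the effect in NP exceeded that in AF by 0.80 (SE 0.75) with a 95% interval from -0.77 to 2.38, and for Krt8 by 0.34 (SE 0.56) with an interval from -0.82 to 1.51 (limma adjusted p = 0.9996 for both).

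Of the related lists, 1 gene was called under MDL-800 in NP. This was Evpl, which encodes envoplakin, a linker between keratin filaments and the cell cortex, at 3.37 ± 0.259 against 1.77 ± 0.262 scaled FPKM (SD, n = 5), a difference of 0.66 (SE 0.10, limma adjusted p = 0.0361). Since the NP groups do not overlap in GC slope, its part in this call cannot be told apart from that of treatment and was not tested. The other 14 tested genes of the desmosome list were not called. None of the 5 other keratins, 15 other notochord and NP genes, 16 cadherins and catenins, 5 relatives and partners of BASP1 or 4 ligands of CD24 was called in NP. Tbxt was at 2000 ± 212 against 1404 ± 252 (SD, n = 5), a difference of 0.52 (SE 0.15, limma adjusted p = 0.138). In AF none of these genes was called.

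For each gene the 3 genes with the most similar profile over the 10 NP libraries of both treatments were found among 9224 genes with a mean of at least 5 scaled FPKM in NP, as a description by Pearson's r. These libraries also differ in treatment, depth and base composition, so r can reflect these too. For Krt19 they were Ncdn (r = 0.9991), Fkbp8 (0.993) and Acbd4 (0.986), and r with the same genes over the 10 AF libraries was 0.77, 0.72 and 0.11. For Krt8 they were Gemin7 (0.95), 2200002D01Rik (0.95) and Agfg2 (0.95), for Krt18 Id2 (0.94), Anxa6 (0.93) and Gpc6 (0.92), and for Cd24a Pqbp1 (0.93), Rgs10 (0.92) and Syce2 (0.92). For Basp1 they were Metap1d (0.97), Nudt5 (0.96) and Snx32 (0.96), and for Cdh2 AC166358.6 (0.97), Ss18 (0.95) and Strn (0.95). None of the 6 genes was among another's closest 3.

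Sequences of 90% identity or more elsewhere can take reads from 3 of the genes. The pseudogene Krt8-ps matches the Krt8 transcript at 98.6% over 941 nucleotides and was at 0.331 to 5.35 scaled FPKM over the 20 libraries, far below Krt8 at 71.0 to 1248. Gm15352 matches Cd24a at 92.3% over 259 nucleotides and was at 7.00 to 62.7, against 677 to 3846 for Cd24a. A further copy of Cd24a (ENSMUSG00000115196, 96.8% over 218 nucleotides), a copy of Krt18 (ENSMUSG00000114358, 90.5% over 1267 nucleotides) and an antisense match to Krt8 (ENSMUSG00000116010, over 102 nucleotides) have no level here and were not analysed, so the values of Krt8, Krt18 and Cd24a carry that uncertainty.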

How the data were processed

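Total RNA of 20 libraries was sequenced with a ribosomal RNA depletion kit, 50 ng of input and 14 PCR cycles, per the labels' protocols. The authors deposited 1 table of FPKM values for 51789 genes, rounded to 2 decimals. STAR 2.7.11b and the mm10 build are named in the submitters' processing notes, and the program that assigned fragments to genes and the annotation are not given in the sources used here. All 20 columns were matched to samples by name. Genes were placed with GENCODE M21 on GRCm38, the same assembly.

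FPKM were divided by a factor per library (0.93 to 1.058), a median of ratios taken across 11308 genes that reach 1 FPKM in each of the 20 libraries. The 16383 genes that reach 1 FPKM in 5 or more libraries were tested. Groups were compared on log2(scaled FPKM + 1) with limma 3.58.1 in R 4.3.3 (eBayes with trend, two-sided, Benjamini-Hochberg adjustment over all genes tested), with only the 2 groups compared in the fit. Fold changes on this scale understate those of low genes. A gene is called at an adjusted p under 0.05. Exact permutation tests and correlations used scipy 1.17.1 in Python 3.11.15, and copies were found with BLAST 2.17.0 at 90% identity over 100 nucleotides or more. Depth was estimated from low values, 79.2% to 84.6% of which lay within 0.15 of a whole fragment. The procedure was tested on simulated data.

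The 6 genes and the related lists were chosen with earlier results of these data known. From each list at most 4 called genes with the smallest adjusted p are named, and any gene a sentence turns on. The column names carry a second number, which NP and AF libraries share in part. Correlations of the deviations of same-numbered libraries were between -0.18 and 0.29. The labels do not say what the number stands for, so these values cannot decide whether the libraries are paired. The libraries were fitted as unpaired, and a fit blocked by this number was an added alternative. Alternatives covered the pseudocount, filter, scaling, variance model, GC trend, marker covariates and single libraries.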

Additional observations from a re-analysis of the deposited data

Results flagged for a closer look

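Dixon's test was run on 32 groups of 5 values, 24 of gene levels and 8 of keratin ratios. In 6 groups 1 library lay far from the others. For independent, normally distributed values chance gives about 1 in 20 groups. These groups reuse the same libraries and were not log-transformed, so the count cannot show an excess over chance. AF vehicle library 9 was far above its group for Krt18, at 109.9 scaled FPKM, and for Cd24a, at 2328. AF MDL-800 library 25 was far above its group for Krt18, at 104.9. Library 9 also had the highest summed level of the other notochord and NP genes in AF vehicle, and library 25 the highest in AF MDL-800, and its part in the levels was not tested. NP MDL-800 library 15 had the highest Cdh2 of an otherwise narrow group, at 208.5 scaled FPKM. AF vehicle library 10 had the highest ratio of Krt19 to Krt18, at 16.3, and AF MDL-800 library 27 the highest ratio of Krt8 to the sum of Krt18 and Krt19, at 0.827.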

How the results depend on the processing

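The number of the 6 genes called was recomputed 120 times over the 5 comparisons. It was 5 in both tissue comparisons and 0 under treatment, apart from fits that also called Basp1 between the tissues. Those were quantile normalization, with a difference of 0.71 in vehicle and 0.54 in MDL-800 libraries, and the fit with the replicate block by column number over the 3 numbers that NP and AF MDL-800 libraries share, with 0.65 (limma adjusted p = 0.0273) and 6 of 6 called. The block over the 5 numbers of the vehicle libraries called 5 of 6 and changed no call, and its Krt19 difference stayed at 2.30 (limma adjusted p = 0.0138). These same-numbered libraries share only a number, as far as the labels say. No called difference changed sign, and none was lost. Without single libraries the Krt8 effect of MDL-800 in NP lay between 0.34 and 0.44 and that of Krt19 between 0.70 and 0.99. Over all 24 alternatives the limma adjusted p lay between 0.0865 and 0.826 for Krt8 and between 0.0911 and 0.591 for Krt19. The sign of the small effects in AF changed with the setting for all 6 genes. The replicate block and the omission of libraries by GC slope were chosen after seeing the data.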
